A study of Mus musculus with 14 samples.

Results

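A set of 10 genes that immature neurons use to build and extend their processes was followed in cells sorted from the embryonic mouse cortex after forced expression of Fezf2. They were chosen by symbol and not by a measured value, although earlier results of these data were known. They are Dcx, Tubb3, Stmn2, Stmn3, Ina, Nefl, Nefm, Map2, Mapt and Gap43. Every probe set annotated to exactly 1 of these symbols was taken, which gave 24 of the 45037 probe sets on the array. A probe set is a group of short oligonucleotides on the array that report together on 1 transcript. Where a gene had several probe sets, the one with the highest 14-array mean stood for it, and the others are given beside it. Of the 10 genes, 9 were among the 10295 of 18193 genes tested, because their values lay above a dim level of 4 on the log2 scale in at least 3 arrays. Nefm was above that level in 2 arrays and was not tested, and Nefl was above it in 4.

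A newborn cortical neuron leaves the dividing layers and grows an axon and dendrites on a scaffold of microtubules, neurofilaments and actin. Tubb3 is the beta-tubulin isotype typical of neurons. Dcx, Map2 and Mapt bind and stabilise microtubules, and Stmn2 and Stmn3, of the stathmin family, bind free tubulin and promote microtubule disassembly. Ina, Nefl and Nefm are neurofilament subunits, of which Ina (alpha-internexin) is made early in neuronal development and the other two mainly as axons mature. Gap43 is a membrane protein of growth cones, the motile tips of growing axons.

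CD1 embryos received DNA in the lateral ventricle at E14.5 and electric pulses that carry it into the progenitors lining the ventricle. The vector was Fezf2GFP, which carries Fezf2, a zinc-finger factor that neurons projecting to the spinal cord depend on, or CtrlGFP. GFP-expressing cells were purified by flow cytometry after 24 h or 48 h, which gave 3 arrays of Fezf2GFP and 3 of CtrlGFP cells at 24 h, and 4 arrays of each at 48 h. The series asks what Fezf2 changes in progenitors that would otherwise mainly form callosal neurons of the upper layers. Embryos of all groups share the strain, the injection age, the surgery and the sort. The labels give neither the promoter that drives the vectors nor the number of embryos pooled per array. They also do not say whether arrays of 1 group stem from different litters, so the spread behind each p-value may be technical.

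Progenitor genes were present in every sample: Sox2, Pax6, Hes5, Eomes and Neurog2 lay above the dim level in 14 of 14 arrays. Fezf2 itself, read by 1 probe set, went against the label. Its log2 value averaged 9.44 ± 0.11 in the arrays labelled Fezf2GFP and 11.30 ± 0.42 in those labelled CtrlGFP at 24 h (SD, n = 3 each). At 48 h Fezf2 averaged 9.33 ± 0.70 in the arrays labelled Fezf2GFP and 10.15 ± 0.48 in those labelled CtrlGFP (SD, n = 4 each). The labels do not say whether the vector's insert includes the sequence this probe set reads, so every direction between vectors rests on the labels. CtrlGFP 24 h replicate 1 and CtrlGFP 48 h replicate 2 stood apart, with the highest array medians and deviations from their group means that correlated at 0.593 across genes. Precision is limited by the small number of arrays.

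Between 24 h and 48 h, 5 of the cytoskeletal and growth genes rose with both vectors and 1 more with CtrlGFP. With Fezf2GFP 5 of the 9 tested genes passed the test upwards (Stmn2, Stmn3, Ina, Mapt and Gap43). The median log2 fold change of all 9, passing or not, was 0.85, against a median of -0.01 over all genes tested. With CtrlGFP 6 of 9 passed, the same 5 and Tubb3, and the median of all 9 was 0.82, against -0.02 over all genes. Of all genes tested, 6.38% rose with Fezf2GFP and 5.88% rose with CtrlGFP by the same rule, which was an adjusted p under 0.05 in limma. The arrays of the 2 times did not overlap in 7 of 9 genes with Fezf2GFP, where 13.3% of all genes were higher without overlap, and in 6 of 9 with CtrlGFP, where the share was 9.93%. No tested gene of the set fell.

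**Figure D1:**
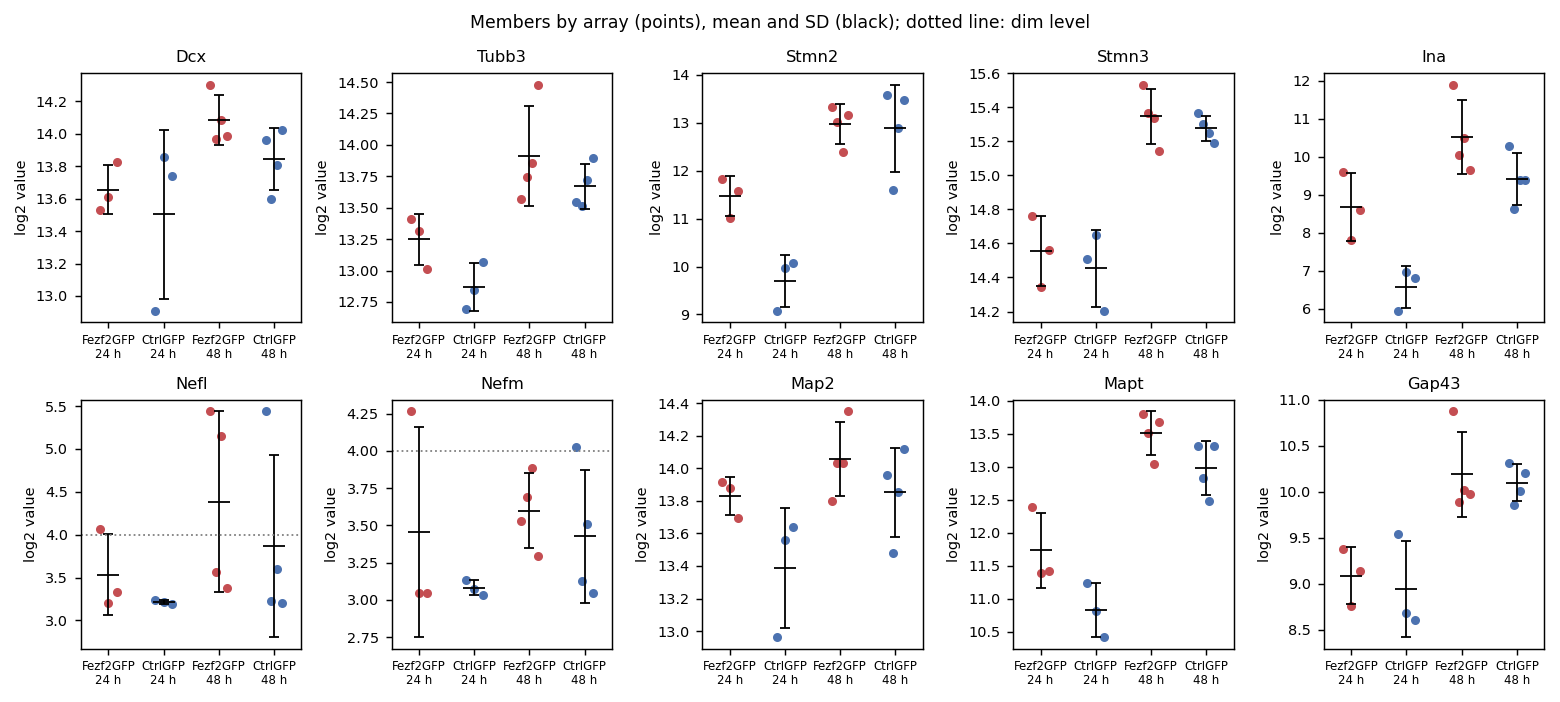
Log2 value (vertical axis) of the highest probe set of each of the 10 genes in the 14 arrays, by vector and time; points are arrays, black bars the mean and SD, and the dotted line is the dim level of 4. Stmn2, Ina and Mapt are lowest in the 3 CtrlGFP 24 h arrays, and Nefl and Nefm scatter around the dim level.

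Tubb3 at 48 h had log2 values of 13.57, 13.74, 13.85 and 14.48 with Fezf2GFP, against 13.41, 13.32 and 13.02 with Fezf2GFP at 24 h. With CtrlGFP Tubb3 stood at 13.55, 13.51, 13.72 and 13.90 at 48 h and at 12.69, 12.85 and 13.07 at 24 h. All 48 h arrays lay above all 24 h arrays of the same vector. The log2 fold change was 0.66 ± 0.21 with Fezf2GFP, which missed the threshold, and 0.80 ± 0.21 with CtrlGFP (limma, SE, adjusted p = 0.0605 and 0.0250). The CtrlGFP call was lost without CtrlGFP 24 h replicate 1 or 2 (adjusted p = 0.0922 and 0.0782, limma) or without CtrlGFP 48 h replicate 3 or 4 (0.0524 and 0.0725), and without both CtrlGFP arrays that stood apart (0.0819). The Fezf2GFP difference passed without Fezf2GFP 48 h replicate 1 (adjusted p = 0.0387, limma), and also under quantile normalization (0.0393), array weights (0.0134) and the mean over probe sets (0.0468). Tubb3 has 1 probe set, so the last of these left its own values unchanged and acted only through the other genes fitted.

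Stmn2, whose protein is abundant in growth cones, gave the steepest rise of the set with CtrlGFP. Its log2 values were 13.57, 11.59, 12.89 and 13.48 in CtrlGFP arrays at 48 h and 9.07, 9.96 and 10.07 in those at 24 h, a 9.07-fold difference (log2 fold change 3.18 ± 0.44, limma, SE, adjusted p = 0.00055). With Fezf2GFP Stmn2 was at 13.32, 13.01, 12.38 and 13.16 at 48 h and at 11.82, 11.00 and 11.58 at 24 h, a 2.83-fold difference (log2 fold change 1.50 ± 0.44, limma, adjusted p = 0.0408). With this probe set neither vector's arrays overlapped between the times. With the second Stmn2 probe set, described further on, the Fezf2GFP arrays did overlap. The Fezf2GFP call depended on single arrays. It was lost without CtrlGFP 24 h replicate 2 (adjusted p = 0.0542, limma), CtrlGFP 48 h replicate 3 (0.0548), Fezf2GFP 24 h replicate 1, 2 or 3 (0.0588, 0.175 and 0.108), or Fezf2GFP 48 h replicate 1, 2 or 4 (0.0970, 0.0829 and 0.0758).

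Stmn3, a Golgi-associated stathmin, moved by less and with little spread. Its log2 values at 48 h were 15.53, 15.37, 15.34 and 15.15 with Fezf2GFP, against 14.76, 14.35 and 14.56 at 24 h. With CtrlGFP Stmn3 was at 15.37, 15.30, 15.25 and 15.19 at 48 h and at 14.51, 14.65 and 14.20 at 24 h. The times did not overlap with either vector. The log2 fold change was 0.79 ± 0.16 with Fezf2GFP and 0.82 ± 0.16 with CtrlGFP (limma, SE, adjusted p = 0.00574 and 0.00401).

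Mapt, which encodes tau, had the smallest adjusted p of the set with Fezf2GFP. At 48 h its log2 values were 13.80, 13.52, 13.04 and 13.68 with Fezf2GFP, against 12.39, 11.38 and 11.42 at 24 h, a 3.42-fold difference. In CtrlGFP arrays Mapt was at 13.31, 12.83, 12.48 and 13.31 at 48 h and at 11.24, 10.81 and 10.42 at 24 h, a 4.46-fold difference. No 48 h array overlapped a 24 h array of the same vector, and the limma log2 fold changes were 1.78 ± 0.31 and 2.16 ± 0.31 (SE, adjusted p = 0.00261 and 0.000656). Mapt and Stmn3 passed with both vectors in all 25 alternative analyses run.

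Dcx and Map2 passed with neither vector. Dcx log2 values at 48 h were 14.30, 13.97, 14.08 and 13.98 with Fezf2GFP, against 13.53, 13.61 and 13.82 at 24 h. These did not overlap, and the log2 fold change was 0.43 ± 0.22 (limma, SE, adjusted p = 0.250). It passed when both CtrlGFP arrays that stood apart were left out (adjusted p = 0.0472, limma). In CtrlGFP arrays Dcx was at 13.96, 13.60, 13.81 and 14.03 at 48 h and at 12.91, 13.86 and 13.74 at 24 h, which overlapped (log2 fold change 0.34 ± 0.22, limma, SE, adjusted p = 0.383).

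Map2, the dendritic microtubule-associated protein, differed between times by 0.23 ± 0.21 with Fezf2GFP and 0.46 ± 0.21 with CtrlGFP (limma log2 fold change, SE, adjusted p = 0.574 and 0.186). Its 48 h log2 values were 13.80, 14.03, 14.03 and 14.35 with Fezf2GFP, against 13.91, 13.88 and 13.70 at 24 h. With CtrlGFP they were 13.96, 13.48, 13.86 and 14.12 at 48 h and 12.96, 13.56 and 13.64 at 24 h. Both pairs of groups overlapped, and the 95% interval of the Fezf2GFP difference ran from -0.22 to 0.67.

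Among the neurofilament subunits Ina changed and the other two were dim. Ina log2 values at 48 h were 11.91, 10.04, 10.51 and 9.65 with Fezf2GFP, against 9.61, 7.82 and 8.60 at 24 h, with no overlap (3.61-fold, log2 fold change 1.85 ± 0.55, limma, SE, adjusted p = 0.0462). In CtrlGFP arrays Ina was at 10.30, 8.63, 9.38 and 9.39 at 48 h and at 5.94, 6.98 and 6.82 at 24 h, which was 7.17-fold (log2 fold change 2.84 ± 0.55, limma, SE, adjusted p = 0.00455). The Fezf2GFP call was lost without CtrlGFP 24 h replicate 2 or 3 (adjusted p = 0.0589 and 0.0592, limma), CtrlGFP 48 h replicate 3 or 4 (0.0614 and 0.0611), Fezf2GFP 24 h replicate 2 or 3 (0.215 and 0.143), or Fezf2GFP 48 h replicate 1, 2 or 3 (0.102, 0.0599 and 0.0896).

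Nefl, the light neurofilament subunit, was above the dim level in 2 of the 4 Fezf2GFP 48 h arrays (log2 values 5.44, 3.57, 5.15 and 3.38) and in 1 of the 3 Fezf2GFP 24 h arrays (4.07, 3.20 and 3.33). In CtrlGFP arrays Nefl passed it once at 48 h (5.44, 3.22, 3.61 and 3.21) and in 0 of 3 arrays at 24 h (3.23, 3.21 and 3.19). Nefm, the medium subunit, passed it in Fezf2GFP 24 h replicate 1, at 4.27, and in CtrlGFP 48 h replicate 1, at 4.03. Most values of these 2 genes therefore have an upper bound only. For Nefl no comparison passed. The second Nefl probe set, 1454672_at, was above the dim level in 1 of 14 arrays, CtrlGFP 48 h replicate 1, at 4.18.

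Gap43 rose with both vectors. Its log2 values at 48 h were 10.88, 9.89, 10.02 and 9.98 with Fezf2GFP, against 9.37, 8.76 and 9.14 at 24 h (2.15-fold, log2 fold change 1.10 ± 0.28, limma, SE, adjusted p = 0.0222). With CtrlGFP Gap43 was at 10.31, 9.86, 10.01 and 10.21 at 48 h and at 9.54, 8.68 and 8.60 at 24 h (2.23-fold, log2 fold change 1.16 ± 0.28, limma, SE, adjusted p = 0.0164). The times did not overlap with either vector. The Fezf2GFP call was lost without Fezf2GFP 24 h replicate 2 or 3 (adjusted p = 0.116 and 0.0727, limma) and the CtrlGFP call without CtrlGFP 24 h replicate 2 or 3 (0.0757 and 0.0770).

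**Figure D2:**
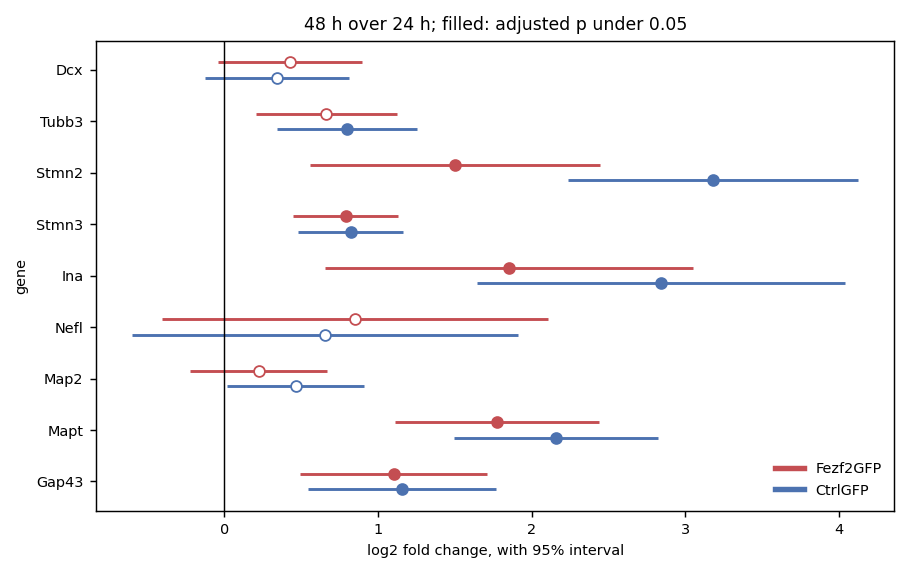
Limma log2 fold change of 48 h over 24 h (horizontal axis) with its 95% interval for the 9 tested genes, in Fezf2GFP arrays above and CtrlGFP arrays below; filled points have an adjusted p under 0.05. All 18 points lie above 0, and 11 are filled.

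Promoter sequence, from a RefSeq table of assembly GRCm38.p6, was at hand for 5 of the 10 genes. The 250 bases before the start site are printed for Tubb3, Stmn3 and Ina, which rose with time in at least 1 vector, so that their composition can be compared. They lie at chr8:123411303-123411552 (plus strand), chr2:181314501-181314750 (minus strand) and chr19:47014431-47014680 (plus strand). Each is written 5′ to 3′ along the gene, with capitals for matches on either strand to 4 motifs: CAGCTG and CATCTG, which are E-boxes of the kind bound by basic helix-loop-helix factors, CCAAT, and the GC box GGGCGG.
Tubb3: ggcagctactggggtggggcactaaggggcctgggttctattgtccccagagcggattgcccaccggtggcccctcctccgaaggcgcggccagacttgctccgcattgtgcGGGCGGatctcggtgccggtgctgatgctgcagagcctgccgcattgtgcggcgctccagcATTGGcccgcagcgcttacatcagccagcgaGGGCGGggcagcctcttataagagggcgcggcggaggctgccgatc
Stmn3: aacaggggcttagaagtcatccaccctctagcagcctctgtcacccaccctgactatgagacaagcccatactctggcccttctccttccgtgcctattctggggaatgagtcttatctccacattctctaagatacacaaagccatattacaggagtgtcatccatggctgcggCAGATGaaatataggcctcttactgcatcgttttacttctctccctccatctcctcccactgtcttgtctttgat
Ina: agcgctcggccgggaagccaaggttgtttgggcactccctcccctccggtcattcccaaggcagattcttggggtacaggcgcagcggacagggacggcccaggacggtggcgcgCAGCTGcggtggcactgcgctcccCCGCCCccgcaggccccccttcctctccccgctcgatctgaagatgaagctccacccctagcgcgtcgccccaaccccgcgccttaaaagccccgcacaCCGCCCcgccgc

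The Tubb3 and Ina windows were rich in G and C, at 68.0% and 70.8%, and the Stmn3 window was not, at 48.8%, against a median of 52.4% over all 32851 promoters of the table. Ina held a CAGCTG whose first base is at -135 from the start site, and 13.0% of all promoters hold that motif in a window of this length. Stmn3 held a CATCTG at -75, written CAGATG on the gene's strand, which 14.4% of all promoters hold. CCAAT was present in Tubb3 only among these 3, with 33.9% of all promoters holding it, and GGGCGG was present in Tubb3 and Ina at 2 places each, with 32.7% of all promoters holding it. No motif of the 4 was common to the 3 windows. Windows of Map2 and Dcx, which passed with time with neither vector, were at hand and are not printed. The Map2 window held GGGCGG and 81.2% G and C. The Dcx windows stood at 41.6% and 44.8%, and the first held a CCAAT. A match is a run of letters and not a measured site.

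Between vectors, 0 of the 9 tested genes passed at 24 h and 0 of 9 at 48 h, while 1.06% and 3.13% of all genes did in either direction (limma, adjusted p under 0.05). All 9 fold changes were above 0 at both times in the fit as reported. Nefl is 1 of the 9, though it was above the dim level in only 4 of 14 arrays and in 0 of 3 CtrlGFP 24 h arrays. Over 10280 genes the fold change between vectors rose with gene span, the length of the gene on the chromosome (Spearman 0.27 at 24 h and 0.28 at 48 h). With that trend removed Gap43 turned to -0.004 at 48 h, and the other signs between vectors stayed. The median log2 fold change of Fezf2GFP over CtrlGFP was 0.38 at 24 h and 0.24 at 48 h, against 0.06 and 0.06 over all genes, of which 56.4% and 57.3% lay above 0. Before adjustment 3 genes had p under 0.05 at 24 h (Stmn2, Ina and Mapt) and 0 at 48 h. Over all 10295 genes 911 did so at 24 h and 1569 at 48 h (limma, either direction). At 24 h the Fezf2GFP arrays lay wholly above the CtrlGFP arrays in 4 of 9 genes, where 12.6% of all genes did so, and at 48 h in 0 of 9, where 7.35% of all genes did so.

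At 24 h Stmn2 stood at log2 values of 11.82, 11.00 and 11.58 in Fezf2GFP arrays, against 9.07, 9.96 and 10.07 in CtrlGFP arrays. The groups did not overlap, and the log2 fold change was 1.77 ± 0.47 (limma, SE, 3.40-fold, adjusted p = 0.114). Leaving out CtrlGFP 48 h replicate 2, which enters only through the shared spread, brought it past the threshold (adjusted p = 0.0214, limma). At 48 h the difference was 0.08 ± 0.40 (limma, SE, adjusted p = 0.952), and it was -0.35 without that same array and -0.03 without Fezf2GFP 48 h replicate 1.

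Ina at 24 h was at 9.61, 7.82 and 8.60 in Fezf2GFP arrays, against 5.94, 6.98 and 6.82 in CtrlGFP arrays, on the log2 scale. Again the groups did not overlap, and the log2 fold change was 2.09 ± 0.59 (limma, SE, 4.26-fold, adjusted p = 0.155). At 48 h it was 1.10 ± 0.51 (limma, SE, adjusted p = 0.332), with a 95% interval from -0.01 to 2.21. Mapt at 24 h was at 12.39, 11.38 and 11.42 in Fezf2GFP arrays, against 11.24, 10.81 and 10.42 in CtrlGFP arrays, a log2 fold change of 0.91 ± 0.33 (limma, SE, adjusted p = 0.349). For Mapt the 48 h difference was 0.53 ± 0.28 (limma, SE, adjusted p = 0.429).

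Map2 was the other gene without overlap at 24 h, with log2 values of 13.91, 13.88 and 13.70 in Fezf2GFP arrays, against 12.96, 13.56 and 13.64 in CtrlGFP arrays. The log2 fold change was 0.44 ± 0.22 (limma, SE, adjusted p = 0.620), and it was 0.23 without CtrlGFP 24 h replicate 1. Dcx, Tubb3, Stmn3, Nefl and Gap43 overlapped between vectors at both times. Dcx turned to -0.14 at 24 h without CtrlGFP 24 h replicate 1. Stmn3 turned to -0.02 and Gap43 to -0.02 at 24 h without CtrlGFP 24 h replicate 3, Stmn3 to -6e-04 without Fezf2GFP 24 h replicate 1, and Gap43 to -0.14 at 48 h without Fezf2GFP 48 h replicate 1.

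**Figure D3:**
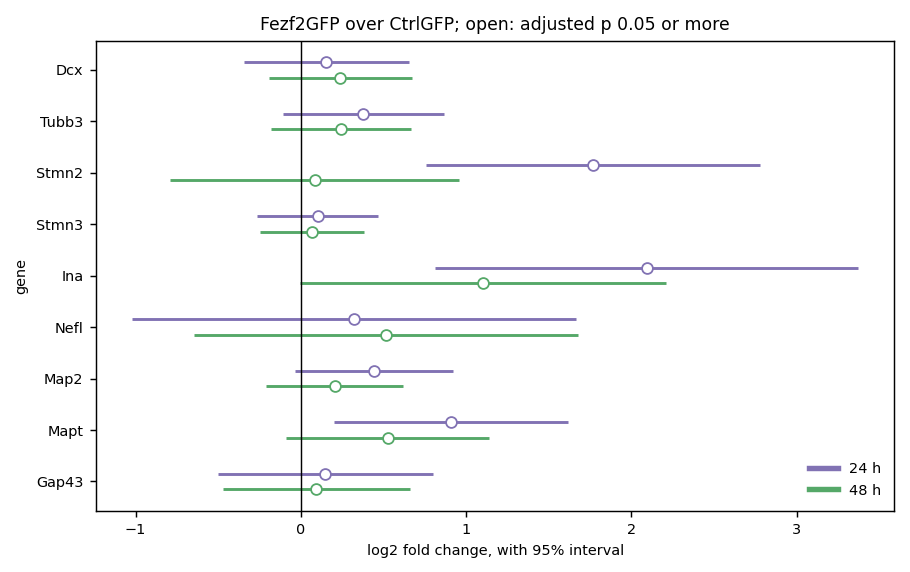
Limma log2 fold change of Fezf2GFP over CtrlGFP (horizontal axis) with its 95% interval for the 9 tested genes, at 24 h above and at 48 h below; no point passed the threshold. At 24 h the intervals of Stmn2, Ina and Mapt lie above 0, and at 48 h all 9 intervals include 0.

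The difference between the 2 vector effects, which is also the difference between the 2 time effects, passed for 0 of 9 genes, with 0.0971% of all genes passing (limma, interaction term, adjusted p under 0.05). Over all 10295 genes 509 had an unadjusted p under 0.05 for the interaction. Of the set only Stmn2 did, at an interaction of -1.68 ± 0.62 (limma, SE, adjusted p = 0.848). Its rise with time was thus larger with CtrlGFP in these arrays, but not beyond the threshold over all genes. Of the 9 interactions, 7 lay below 0, at a median of -0.14, against 0.01 over all genes, of which 51.6% lay above 0. Since the vector and time comparisons share arrays, their values for 1 gene are not independent.

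In a separate fit every probe set was its own row, and 20 of the 24 of these genes entered it. The 20 include the representatives of the 9 tested genes, so the counts below partly repeat calls given above. With Fezf2GFP 8 of 20 rose with time and with CtrlGFP 12 of 20, where 4.25% and 4.16% of all 20367 probe sets rose. Between vectors 0 of 20 passed at 24 h and at 48 h (0.604% and 1.77% of all probe sets), and 0 of 20 in the interaction (0.0687%). In this fit of more rows the representative probe sets of Stmn2 and Ina missed the threshold with Fezf2GFP (adjusted p = 0.0592 and 0.0667, limma), whereas both other Ina probe sets passed (0.0134 and 0.0356).

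Stmn2 1423281_at, the second probe set of this gene, passed with time with CtrlGFP only. Its log2 values were 9.45, 11.23, 10.86 and 10.70 in Fezf2GFP arrays at 48 h and 9.73, 7.90 and 8.56 in those at 24 h, which overlapped (log2 fold change 1.83 ± 0.54, limma, SE, adjusted p = 0.0593). In CtrlGFP arrays it was at 11.13, 10.59, 10.98 and 11.07 at 48 h and at 8.53, 7.04 and 6.43 at 24 h, with no overlap (3.61 ± 0.54, limma, SE, adjusted p = 0.00159). Between vectors it overlapped at both times. The log2 fold change of Fezf2GFP over CtrlGFP was 1.40 at 24 h and -0.38 at 48 h (adjusted p = 0.595 and 0.815, limma).

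Ina 1418178_at had log2 values of 10.86, 9.75, 9.56 and 9.96 in Fezf2GFP arrays at 48 h and 8.89, 7.54 and 7.99 in those at 24 h. In CtrlGFP arrays it was at 9.90, 8.97, 8.67 and 8.96 at 48 h and at 7.21, 7.10 and 6.23 at 24 h. The third Ina probe set, 1448992_at, lay below the dim level in all CtrlGFP 24 h arrays (3.53, 3.34 and 3.39) and above it in the other 11. Against the dim level in CtrlGFP 24 h arrays, its mean was at least 2.47-fold higher in Fezf2GFP arrays at 24 h (adjusted p = 0.423, limma). In the same way it was at least 3.29-fold higher in CtrlGFP arrays at 48 h (adjusted p = 0.0365, limma). Single values were 6.74, 4.59 and 4.59 in Fezf2GFP arrays at 24 h and 6.38, 4.72, 5.87 and 5.92 in CtrlGFP arrays at 48 h. Neither bound on the mean holds for every single array.

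For Mapt, 1455028_at and 1424718_at rose with time with both vectors, as the representative did. They differed between vectors at 24 h by 1.52 and 1.73 on the log2 scale, more than the 0.91 of the representative, with no overlap and without passing (adjusted p = 0.155 and 0.229, limma). The remaining Mapt probe set, 1417885_at, was above the dim level in 3 of 14 arrays, Fezf2GFP 48 h replicates 1 and 4 (4.37 and 4.52) and CtrlGFP 48 h replicate 4 (4.08). The second Stmn3 probe set, 1460181_at, rose by 1.19 with Fezf2GFP and by 1.16 with CtrlGFP on the log2 scale (adjusted p = 0.00492 and 0.00498, limma). This bears on the representative, whose name ends in x_at, the manufacturer's mark for probes that may also bind other transcripts.

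Probe sets of Dcx and Map2 disagreed in range. Dcx 1418141_at spread widely, from 8.47 in CtrlGFP 24 h replicate 1 to 12.97 in Fezf2GFP 48 h replicate 1, and its time difference of 1.26 with Fezf2GFP did not pass (adjusted p = 0.392, limma). Dcx 1418140_at stayed between 4.93 and 5.64 and Map2 1421328_at between 4.89 and 5.69 in all 14 arrays. Dcx 1448974_at and Map2 1421327_at lay at 2.13 to 2.21 and 2.13 to 2.22, below the dim level throughout. Both narrow ones above the dim level were tested and passed in no comparison. Map2 1440699_at, between 8.77 and 10.53, did not pass in any comparison either.

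**Figure D4:**
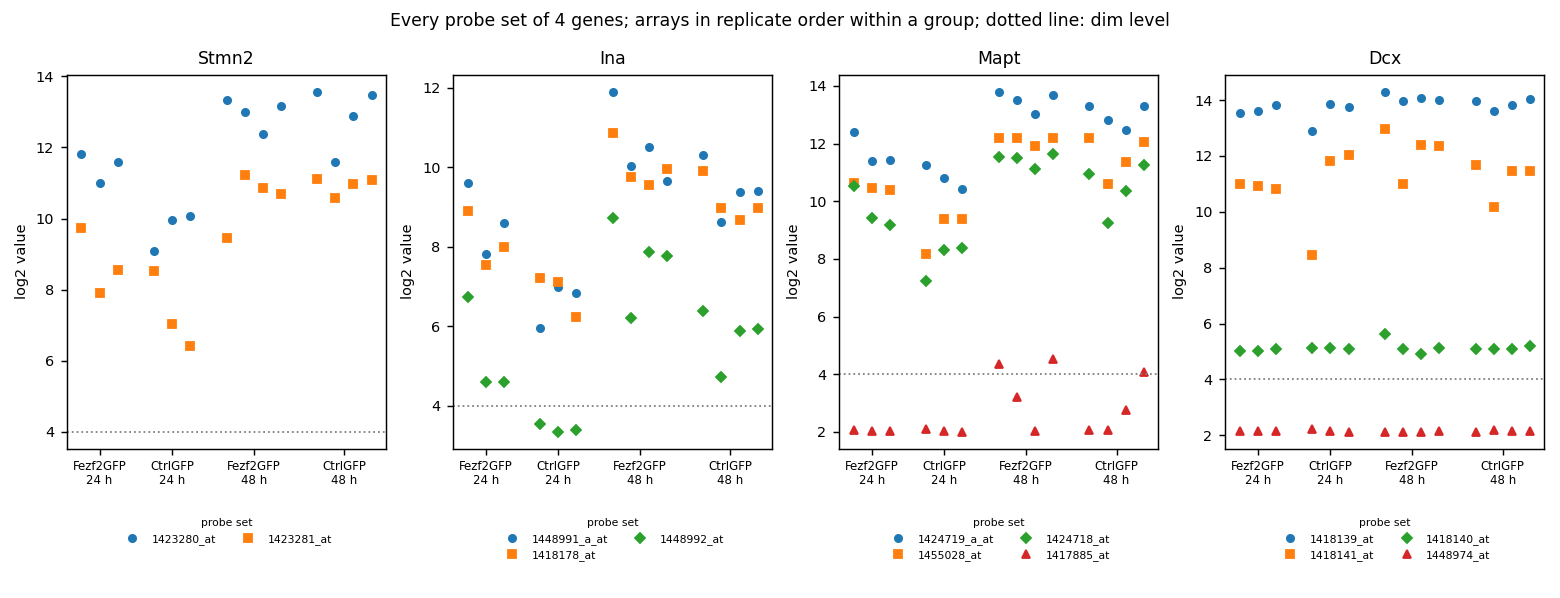
Log2 value (vertical axis) of every probe set of Stmn2, Ina, Mapt and Dcx in the 14 arrays, by group and in replicate order; the dotted line is the dim level of 4. Several probe sets of Ina and Mapt are lowest in the CtrlGFP 24 h arrays, while 1 low probe set of Dcx lies at 4.93 to 5.64 throughout.

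Across the 4 groups the means of all 9 tested genes stood in 1 order, lowest in CtrlGFP 24 h, then Fezf2GFP 24 h, CtrlGFP 48 h and Fezf2GFP 48 h. Of all genes tested 11.2% had this order, which was looked for after the values were seen. It held for 9 genes after quantile normalization and for 8 after median centring, where Map2 left it, and leaving out single arrays kept 7 to 9 genes in it. Fezf2GFP and CtrlGFP of the same time, which are neighbours in that order, differed past the threshold in 0 of 9 genes, though 4 of 9 had no overlap at 24 h. The middle pair, CtrlGFP 48 h and Fezf2GFP 24 h, was not compared. Nefl counts among the 9, though it was above the dim level in only 4 of 14 arrays and in 0 of 3 CtrlGFP 24 h arrays. Its low place in CtrlGFP 24 h was thus partly fixed by the filter that admitted it.

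The average of the 9 genes, each centred on its own mean over the 14 arrays, was -0.34 ± 0.32 in Fezf2GFP arrays and -1.04 ± 0.14 in CtrlGFP arrays at 24 h (log2 scale, SD, n = 3 each). At 48 h it was 0.69 ± 0.27 in Fezf2GFP arrays and 0.34 ± 0.36 in CtrlGFP arrays (SD, n = 4 each). Single arrays moved many of these genes together. Of the 9 genes, 8 were highest of their group in Fezf2GFP 24 h replicate 1, 7 in Fezf2GFP 48 h replicate 1 and 6 in CtrlGFP 48 h replicate 1, and 6 were lowest in each of Fezf2GFP 24 h replicate 2 and CtrlGFP 48 h replicate 2. Gap43 and Stmn3 followed the average most closely, with root-mean-square differences of 0.34 and 0.36, and Ina and Stmn2, which moved more, departed from it most (0.91 and 0.77).

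Outside the set, the 5 genes whose centred values lay closest to this average over the 14 arrays were Ak1, Ncam1, Ndrg4, Pcyt1b and Nlgn3, with root-mean-square differences of 0.21 to 0.24. Ak1 is an adenylate kinase, Ncam1 the neural cell adhesion molecule and Nlgn3 a neuroligin of synapses. Their differences between times follow from this choice, since the average itself is higher at 48 h, and are given as a description. They were 0.71 to 1.24 with Fezf2GFP and 0.98 to 1.54 with CtrlGFP (limma log2 fold changes).

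Related cytoskeletal genes moved in part. Of 9 tested tubulins other than Tubb3, 1 rose with time with Fezf2GFP and 2 with CtrlGFP, and 0 fell. Tubb4a, a beta-tubulin of mature brain, averaged 8.35 at 48 h and 6.24 at 24 h with Fezf2GFP and 7.83 at 48 h and 6.23 at 24 h with CtrlGFP (log2 fold changes 2.11 ± 0.22 and 1.59 ± 0.22, limma, SE, adjusted p = 0.000129 and 0.000603). Tubb2a rose with CtrlGFP by 0.53 on the log2 scale (adjusted p = 0.0380, limma). The list's median was 0.12 with Fezf2GFP and 0.09 with CtrlGFP, against -0.01 and -0.02 over all genes.

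Of 20 other microtubule-binding proteins and stathmins, 4 rose and 1 fell with time with Fezf2GFP, and 3 rose and 1 fell with CtrlGFP, where 5.67% and 6.69% of all genes fell. Stmn4, another neural stathmin, rose by 2.22 ± 0.39 with Fezf2GFP and by 3.47 ± 0.39 with CtrlGFP (limma log2 fold change, SE, adjusted p = 0.00292 and 0.000207). Kif3c, a kinesin motor, rose by 1.01 with Fezf2GFP (adjusted p = 0.00267, limma). Nde1, a dynein partner that progenitors need for mitosis, fell by 1.59 with Fezf2GFP and by 1.63 with CtrlGFP on the log2 scale (adjusted p = 0.00543 and 0.00419, limma). Between vectors 1 of the 20 passed, at 48 h, where 2.70% of all genes were higher: Map6, a stabiliser of microtubules, averaged 10.90 in Fezf2GFP arrays and 9.37 in CtrlGFP arrays (log2 fold change 1.54 ± 0.36, limma, SE, adjusted p = 0.0337).

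Of 10 other intermediate filament genes 5 were bright enough to test. Nes, the nestin of neural progenitors, averaged 9.77 in Fezf2GFP arrays and 8.46 in CtrlGFP arrays at 48 h (log2 fold change 1.30 ± 0.21, limma, SE, adjusted p = 0.00472) and fell with time by 1.21 with CtrlGFP (adjusted p = 0.00367, limma). Lmna, a lamin of the nuclear envelope, rose with time by 1.91 with Fezf2GFP (adjusted p = 0.0493, limma), although arrays of the 2 times overlapped. The list's medians with time were -0.48 with Fezf2GFP and -0.50 with CtrlGFP.

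Among 20 genes of the growth cone, actin and axon adhesion, 6 rose and 0 fell with time with Fezf2GFP, and 7 rose and 2 fell with CtrlGFP, with medians of 0.43 and 0.33. Dpysl5 and Crmp1, of the collapsin response mediator family, rose with Fezf2GFP by 1.23 and 0.86 (adjusted p = 0.00429 and 0.0113, limma). Cntn2, an axonal adhesion protein, rose with CtrlGFP by 2.59 (adjusted p = 0.000429, limma). Dpysl4, of the same family as Crmp1, fell with time by 2.01 with CtrlGFP (adjusted p = 0.00100, limma). It stood at 8.79 in Fezf2GFP arrays and 6.17 in CtrlGFP arrays at 48 h, a log2 fold change of 2.62 ± 0.28 (limma, SE, adjusted p = 0.000300), the only gene of the 20 to pass between vectors.

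Of 15 other pan-neuronal genes tested, 4 rose with time with Fezf2GFP and 7 with CtrlGFP, 0 fell, and 0 passed between vectors at either time. Myt1l, a neuronal zinc-finger factor, rose by 1.66 with Fezf2GFP and by 2.26 with CtrlGFP (adjusted p = 0.00342 and 0.000441, limma). Scn3a, a sodium channel, rose by 1.25 with Fezf2GFP (adjusted p = 0.00960, limma), and Celf4, an RNA-binding protein, by 1.29 with CtrlGFP (adjusted p = 0.00282, limma). The list's medians with time were 0.52 and 0.55.

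Many markers of dividing cells and intermediate progenitors fell with time. Of 7 markers of dividing cells 4 fell with Fezf2GFP and 6 with CtrlGFP, among them Mki67 by 1.64 and 1.62 on the log2 scale (adjusted p = 0.00133 and 0.00115, limma). Their summed signal was 14.27 to 14.81 in Fezf2GFP arrays at 48 h and 15.43 to 15.73 at 24 h, and 14.06 to 14.97 in CtrlGFP arrays at 48 h and 15.61 to 15.72 at 24 h, on the log2 scale. Of 7 markers of intermediate progenitors 4 fell with Fezf2GFP and 5 with CtrlGFP, and of 10 markers of radial glia 0 and 3. These lists share genes with those above. The radial glia markers Nes and Vim were also among the intermediate filaments, whose medians with time were the values of Vim. Elavl4, an intermediate progenitor marker, was also among the pan-neuronal genes. The intermediate progenitor sums were 15.77 to 15.97 in Fezf2GFP arrays at 48 h and 16.04 to 16.32 at 24 h, and 15.79 to 15.99 in CtrlGFP arrays at 48 h and 16.32 to 16.54 at 24 h. The radial glia sums were 15.86 to 16.39 in Fezf2GFP arrays at 48 h and 16.42 to 16.61 at 24 h, and 15.89 to 16.15 in CtrlGFP arrays at 48 h and 16.49 to 16.57 at 24 h. More neurons among the sorted cells and more RNA of these genes per neuron cannot be told apart in such samples.

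Markers of inhibitory neurons passed in 0 of 7 genes at 24 h, and their sums overlapped between vectors. The 7 genes summed to log2 signals of 10.66, 6.98 and 8.87 in Fezf2GFP arrays at 24 h, against 7.35, 7.12 and 7.08 in CtrlGFP arrays, and all 7 fold changes were above 0. The highest sum was in Fezf2GFP 24 h replicate 1, the array in which 8 of the 9 genes were highest. The lowest was in replicate 2, in which the representative probe sets of Stmn2 (11.00), Ina (7.82) and Mapt (11.38) lay above all CtrlGFP 24 h arrays, while Stmn2 1423281_at (7.90) lay below CtrlGFP 24 h replicate 1 (8.53). Without replicate 1 the log2 fold change at 24 h was 1.59 for Stmn2, 1.62 for Ina and 0.58 for Mapt. At 48 h the inhibitory sums were 9.31, 9.38, 10.35 and 9.34 in Fezf2GFP arrays, against 10.47, 8.34, 8.98 and 7.68 in CtrlGFP arrays. The part of these cells in the differences was not tested.

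Of the other cell types, 5 markers of Cajal-Retzius neurons summed to 10.01 to 10.85 in Fezf2GFP arrays and 7.94 to 10.27 in CtrlGFP arrays at 24 h, with Trp73 and Lhx5 below the dim level in all arrays. At 48 h the sums were 10.78 to 11.73 in Fezf2GFP arrays and 7.04 to 9.87 in CtrlGFP arrays. Of the 3 tested, Calb2 passed between vectors at 48 h, with means of 7.44 in Fezf2GFP arrays and 2.80, below the dim level, in CtrlGFP arrays (adjusted p = 0.000332, limma). It also passed with time with Fezf2GFP, with means of 7.44 at 48 h and 2.93 at 24 h (adjusted p = 0.000368, limma). Of the 3 tested, 1 other passed downwards in that same comparison. Endothelial and pericyte markers summed to 7.20 to 10.23 in Fezf2GFP arrays and 7.42 to 9.03 in CtrlGFP arrays at 24 h, with Pecam1, Cdh5 and Kdr below the dim level in all arrays. Their highest sum was also in Fezf2GFP 24 h replicate 1. Red blood cell markers summed to 13.78 in CtrlGFP 24 h replicate 1, an array that stood apart, and to 9.98 in Fezf2GFP 24 h replicate 3. The other arrays reached 6.11 at most, and Hba-a1, Hbb-bh1 and Alas2 lay below the dim level in all arrays. Glial markers also differed between times. Of 3 tested markers of the oligodendrocyte lineage, 2 rose with CtrlGFP. Olig1 averaged 8.20 at 48 h and 3.66 at 24 h (adjusted p = 0.00123, limma), and Olig2 rose by 1.93 on the log2 scale (adjusted p = 0.00911, limma). Of 2 tested astrocyte markers, Aldh1l1 rose with Fezf2GFP by 1.38 on the log2 scale (adjusted p = 0.00351, limma). The other lay below 0 in that comparison without passing, and the median of the 2 was 0.61. Between vectors at 48 h Mbp and Aldh1l1 were higher with Fezf2GFP, by 1.01 and 1.41 (adjusted p = 0.0221 and 0.00507, limma). Olig1 and Olig2 stood at -1.46 and -1.40 in that comparison without passing (adjusted p = 0.316 and 0.0799, limma), and the list's median was -1.40. The oligodendrocyte sums were 8.46 to 8.65 in Fezf2GFP arrays at 48 h and 7.39 to 8.13 at 24 h, and 7.99 to 9.92 in CtrlGFP arrays at 48 h and 7.26 to 7.36 at 24 h, with Sox10 below the dim level in all arrays. Those of astrocytes were 9.79 to 10.11 in Fezf2GFP arrays at 48 h and 8.07 to 9.15 at 24 h, and 8.20 to 9.03 in CtrlGFP arrays at 48 h and 8.14 to 8.59 at 24 h, with Gfap below the dim level in all arrays. The part of these cell types in the differences of the 9 genes was not tested. All 4 markers of meninges and 4 of 5 of microglia lay below the dim level in all 14 arrays.

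**Figure D5:**
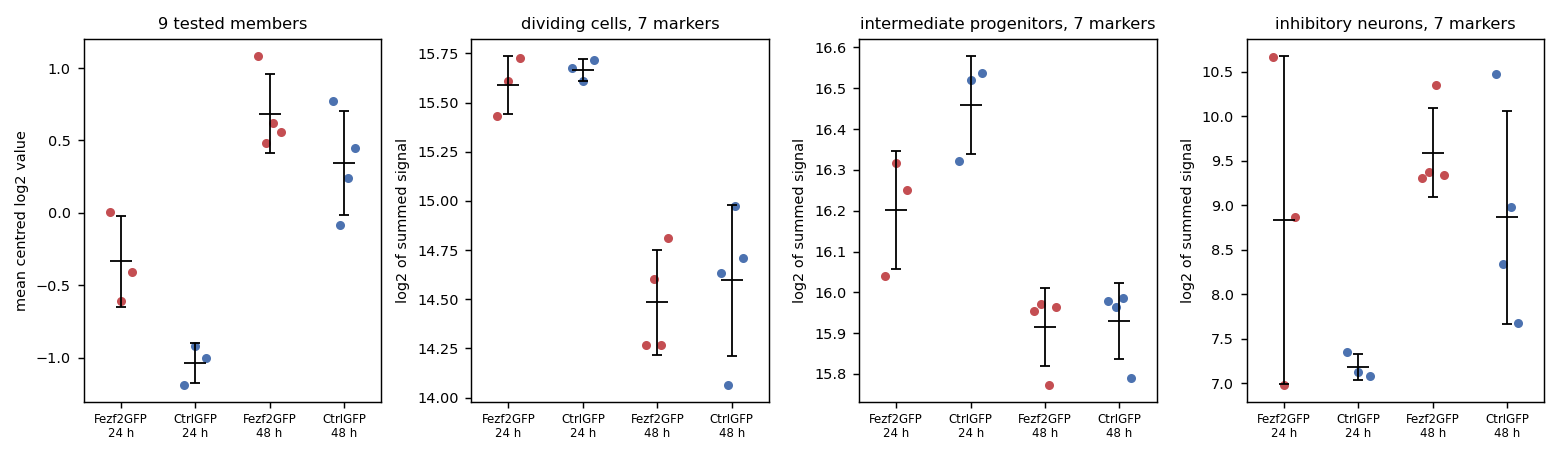
Mean centred log2 value of the 9 tested genes (left panel) and log2 of the summed signal of 3 marker lists (other panels) in the 14 arrays, by vector and time; points are arrays and black bars the mean and SD. The 9 genes are higher and markers of dividing cells and intermediate progenitors lower at 48 h, and inhibitory markers are spread from 6.98 to 10.66 in Fezf2GFP arrays at 24 h.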

How the data were processed

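Transcripts were measured on 14 Affymetrix arrays after 2 rounds of in vitro transcription, per the labels' protocols. The deposited values are log2 intensities, for which the submitters' processing notes name GCRMA; the notes give no version or settings, and no scanner files were used. All later steps start from these log2 values. Array medians lay between 3.26 and 3.50. Probe sets were named through the platform annotation (34945 with 1 symbol, 932 with several, 9160 with none), and only those with 1 symbol were used.

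With limma 3.58.1 in R 4.3.3, 4 group means were estimated from the 14 arrays on 10 residual degrees of freedom, and 5 comparisons were drawn from them (lmFit, eBayes). A gene was tested if its highest probe set exceeded 4 in at least 3 arrays. P-values were Benjamini-Hochberg adjusted over all 10295 genes, or over 20367 rows where each probe set was fitted, with a threshold of 0.05. A likeness to the average of the tested genes is a root-mean-square difference over the 14 arrays. The script was tested on simulated data.

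The genes, the related lists and the markers were chosen with earlier results of these data known. Named genes are the 10 members, up to 2 passing genes with the smallest adjusted p per related list and comparison, the 5 genes most like the average, and 5 progenitor genes as a check of the samples; marker genes beyond these are named with the sums they belong to. Alternatives covered the filter, the scaling, array weights, the choice of probe set, gene span, the arrays fitted and a replicate block.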

Additional observations from a re-analysis of the deposited data

Results flagged for a closer look

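In groups of 4 arrays, 1 array can lie far from the other 3. Of 48 such groups of the probe sets examined, 6 were marked by Dixon's ratio (the gap to the nearest array over the whole range), where chance marks about 1 in 20. In Fezf2GFP arrays at 48 h, Gap43 was high in replicate 1 (ratio 0.868), which was also highest in 7 of the 9 tested genes. Map2 1421328_at was high in Fezf2GFP 48 h replicate 2 (0.841) and Mapt 1455028_at low in Fezf2GFP 48 h replicate 3 (0.968). In CtrlGFP arrays at 48 h, Dcx 1418140_at was high in replicate 4 (0.920), Dcx 1418141_at was low in replicate 2 (0.853), an array that stood apart over all genes, and Nefl 1454672_at was high in replicate 1 (0.944). The ratio takes no account of size: for Dcx 1418140_at the 4 log2 values lay only between 5.10 and 5.19.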

How the results depend on the processing

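Counts of the 9 genes passing between vectors at 24 h were 0 to 1 with single arrays left out and 3 with array weights, and those of their probe sets 0 to 1 and 7. Weights were found gene by gene, since limma's REML search stopped before convergence; with it the counts were 5 and 11. The weights raised calls over all genes as well, to 873 of 10295 (2030 with REML), against 109 as reported. With single arrays left out, 50 to 165 of all genes passed. At 48 h the replicate block gave 1 probe set. With time in Fezf2GFP arrays the count of genes was 3 without the filter on dim probe sets, 3 with median centring, 3 with each probe set as its own row, and 2 to 5 with single arrays left out. For probe sets it was 4 without the filter, 14 with array weights and 2 to 10 with single arrays left out. Calls over all genes in this comparison moved too, from 1241 as reported to 1024 without the filter and 1117 with median centring. They were 2737 with array weights and 643 to 1433 with single arrays left out. Calls over all probe sets in these settings were not counted. Small differences changed sign. With array weights the 24 h vector difference was -0.14 for Dcx and -0.054 for Stmn3, that at 48 h -0.31 for Stmn2 and -0.12 for Gap43, and the interaction 0.13 for Stmn3 and -0.094 for Nefl. Without the 2 CtrlGFP arrays that stand apart, Dcx at 24 h was -0.14, Stmn2 at 48 h -0.35 and the Nefl interaction -0.032. Stmn2 at 48 h was -0.15 as the mean over its probe sets, and Gap43 at 48 h -0.004 with the trend with gene span removed. With single arrays left out, the 24 h difference ranged from -0.14 to 0.33 for Dcx, -0.024 to 0.21 for Stmn3 and -0.021 to 0.45 for Gap43. At 48 h it ranged from -0.35 to 0.31 for Stmn2 and -0.14 to 0.19 for Gap43. The interaction ranged from -0.094 to 0.38 for Dcx, -0.14 to 0.093 for Stmn3, -0.16 to 0.72 for Nefl and -0.36 to 0.11 for Gap43. The cause was not tested.

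Whether replicate numbers pair arrays was not settled. Deviations of same-numbered arrays correlated at -0.06 to 0.32 between vectors of 1 time and at -0.40 to 0.19 between times of 1 vector. No range for differently numbered arrays was set beside these. With the replicate block, Stmn2 with Fezf2GFP (adjusted p = 0.0874, limma) and Tubb3 with CtrlGFP (0.0515) missed the threshold. Dim signal limits Nefl and Nefm, and 3 or 4 arrays per group limit all differences.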
